A study of Mus musculus with 16 samples.

Results

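The B cell identity genes described here are 9 genes that mark mature B cells, namely Ms4a1, Cd79a, Cd79b, Pax5, Cr2, Fcer2a, Tnfrsf13c, Blk and Fcrla. They were chosen by name from the 22298 mouse genes counted in 16 abdominal tumors, and their level in each tumor was set beside that of the plasma cell gene Mzb1. Both groups consisted of wild-type 615-line mice, 6 weeks old, that carried tumors of MFC, a murine gastric cancer cell line from the forestomach, after 500000 cells had been injected intraperitoneally. The vehicle group (8 tumors) received PBS and the IL-33 treatment group (8 tumors) received IL-33 at 20 μg/kg, both into the peritoneal cavity every 2 days. The tumors arose from 1 transplanted cell line in hosts with their own immune system, and whole pieces of tumor were sequenced, so a level can come from any cell in the piece. The labels do not tie tumors to animals, and the methods give fewer mice per group for this model than there were tumors, so the p-values measure only the spread between these tumors.

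Mature B cells carry an antibody molecule on their surface together with the signaling pair CD79a and CD79b. Antigen, complement fragments and survival factors act on them through this receptor complex, through coreceptors and through the receptor for BAFF. When an activated B cell becomes a plasma cell it turns down the transcription factor Pax5 and many of the genes that Pax5 maintains, and turns on the secretory machinery to which Mzb1 belongs. B cell genes and plasma cell genes are therefore commonly read as separate stages of the same lineage.

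The total count was between 14139268 and 24290794 in vehicle tumors and between 16569613 and 24288893 in IL-33 tumors. Levels are given as CPM, the count of a gene scaled to a total of 1000000 counts per tumor. The tumor keratin genes Krt8 (181 to 975 CPM) and Krt19 (44.5 to 690 CPM) were present in every tumor. Krt18 and Epcam, which also mark epithelial tumor cells, were at most 1.83 and 2.40 CPM outside IL-33 replicate 7, where they reached 159 and 98.8 CPM. IL-33 replicate 7 also held genes of the female reproductive tract, with Ovgp1 at 923 CPM against at most 2.83 CPM elsewhere and the ovarian gene Inha at 305 CPM against at most 0.515 CPM. Results are therefore also given without that tumor.

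All 9 genes are protein-coding in the GENCODE M21 annotation of GRCm38. Cr2 lies at chr1:195136811-195176716 and Fcrla at chr1:170917576-170927583. Pax5 lies at chr4:44524757-44710487, Cd79a at chr7:24897381-24902197 and Fcer2a at chr8:3681737-3694175. Cd79b lies at chr11:106311341-106314762, Blk at chr14:63372836-63417037, Tnfrsf13c at chr15:82221743-82224369 and Ms4a1 at chr19:11249675-11266241. Cd79a is on the plus strand and the other 8 are on the minus strand. Exons of Pax5 share 7.18% of their bases with the opposite-strand gene 5730488B01Rik and 1.41% with Gm12462, and the other 8 genes share no exonic base with another annotated gene. For Mzb1, 57.2% of its exonic bases also belong to a same-strand gene annotated as SPATA24, so its counts depend on how shared reads were assigned.

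Because the 9 genes varied together across tumors, the sequence before their start sites is shown for 3 of them, Cd79a and Tnfrsf13c, which followed Mzb1 closely, and Cr2, which was near 0 outside a few tumors. The RefSeq windows (GRCm38.p6, 250 bases before to 50 after the start, 300 bases) existed for 6 of the 9 genes, all but Ms4a1, Cd79b and Blk. Capitals mark the E-box CAGGTG, a sequence that the B cell factor E2A is known to bind, on either strand (CAGGTG or CACCTG). The windows were chr7:24897247-24897546 on the plus strand for Cd79a, chr15:82224331-82224630 on the minus strand for Tnfrsf13c and chr1:195176670-195176969 on the minus strand for Cr2, each written 5′ to 3′ along the gene:
Cd79a: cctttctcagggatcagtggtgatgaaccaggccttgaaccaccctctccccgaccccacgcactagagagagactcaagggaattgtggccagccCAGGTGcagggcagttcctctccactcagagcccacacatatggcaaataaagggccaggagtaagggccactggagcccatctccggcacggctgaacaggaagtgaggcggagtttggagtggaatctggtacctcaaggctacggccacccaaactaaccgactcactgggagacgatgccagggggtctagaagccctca
Tnfrsf13c: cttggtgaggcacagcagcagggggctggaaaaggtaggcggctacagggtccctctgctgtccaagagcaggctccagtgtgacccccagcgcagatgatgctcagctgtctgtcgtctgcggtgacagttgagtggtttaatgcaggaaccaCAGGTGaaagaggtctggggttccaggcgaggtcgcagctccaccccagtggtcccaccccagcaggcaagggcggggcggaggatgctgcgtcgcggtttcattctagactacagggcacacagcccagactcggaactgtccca
Cr2: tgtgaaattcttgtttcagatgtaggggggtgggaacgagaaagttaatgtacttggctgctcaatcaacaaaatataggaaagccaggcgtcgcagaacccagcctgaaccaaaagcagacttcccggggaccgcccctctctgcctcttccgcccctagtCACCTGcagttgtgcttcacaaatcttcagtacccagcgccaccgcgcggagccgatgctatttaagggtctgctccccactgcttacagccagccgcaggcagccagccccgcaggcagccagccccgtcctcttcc
The E-box began at base 97 of the window in Cd79a, at base 155 in Tnfrsf13c and at base 163 in Cr2. Fcrla and 1 of the windows of Fcer2a also held it, so that 5 of the 8 windows of these 6 genes had a match (Fcer2a has 3 windows), beside 20.2% of all 32851 windows of the same length. The octamer ATGCAAAT, on either strand, was in none of the 8 windows and in 1.74% of all windows. The letters GAGGAA, a core bound by ETS factors, were found in Cd79a and Fcrla and in 28.3% of all windows. The motifs do not overlap in their letters, and a match is a description of the sequence only.

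The 9 genes were low in most tumors and high in a few, and the highest tumor was usually not an IL-33 tumor. Vehicle replicate 2 had the highest level of 7 of the 9 genes, and IL-33 replicate 4 had the highest level of Cd79b and Tnfrsf13c. Summed over the 9 genes, vehicle replicate 2 reached 64.3 CPM, while the other 7 vehicle tumors lay between 1.67 and 9.20 CPM. Among the IL-33 tumors, replicates 4, 8 and 7 followed with 47.9, 33.6 and 25.9 CPM. IL-33 replicates 5 and 3 had 14.3 and 11.4 CPM, and replicates 1, 2 and 6 had 4.13, 2.84 and 2.49 CPM. Thus 5 IL-33 tumors lay above all vehicle tumors but 1, and 3 lay within the range of the low vehicle tumors. In whole tissue, fewer B cells and less RNA of these genes per B cell cannot be told apart.

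**Figure D1:**
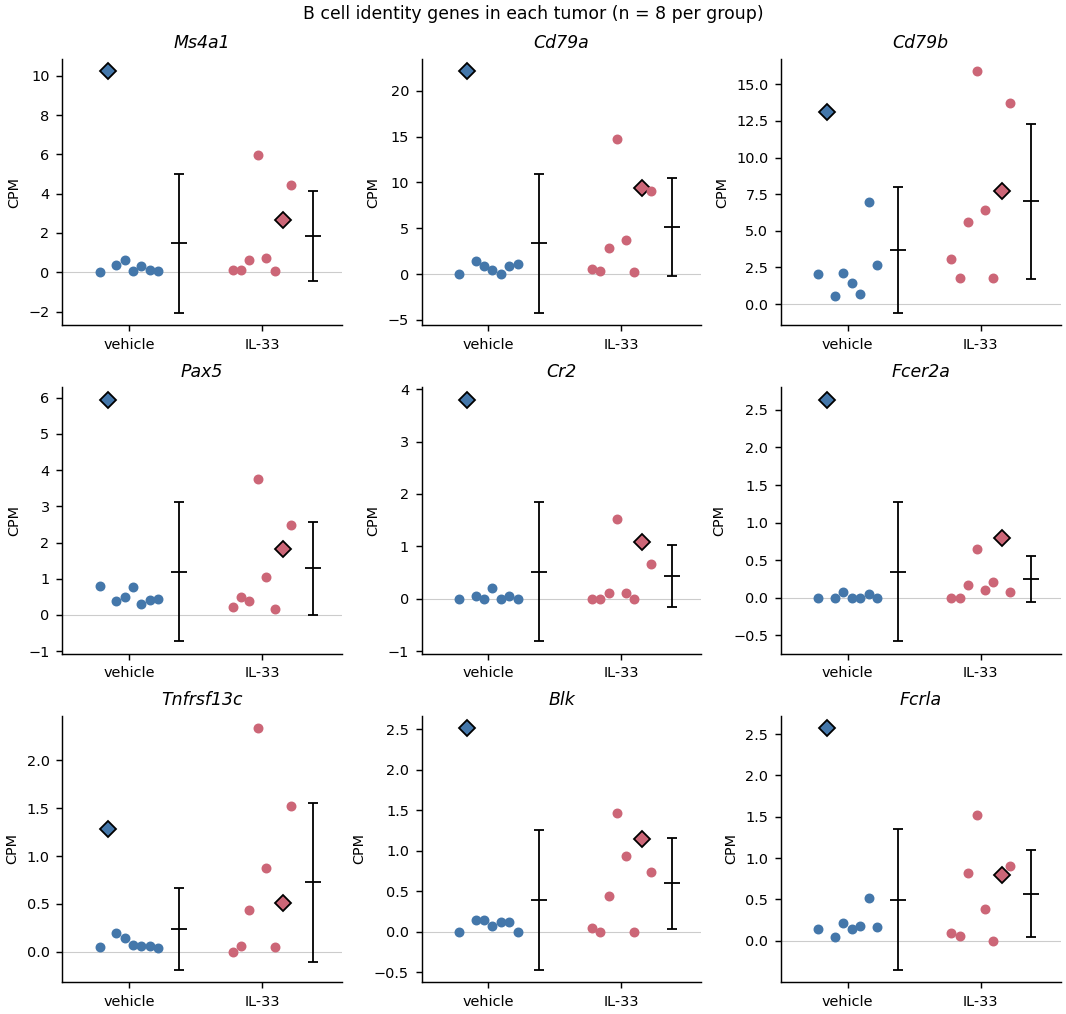
Level of each of the 9 genes (y axis, CPM) in the 8 vehicle tumors (blue) and the 8 IL-33 tumors (red), with the mean and SD of each group in black. Diamonds with a black edge are vehicle replicate 2 and IL-33 replicate 7, and points are spread sideways only to separate tumors. Vehicle replicate 2 sits above the other vehicle tumors in each panel and above all IL-33 tumors for 7 genes.

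The antigen receptor genes were the most abundant of the set. Cd79a, the Ig-α signaling chain of the B cell receptor, ran from 0 over a median of 0.917 to 22.1 CPM in vehicle tumors and from 0.216 over 3.29 to 14.8 CPM in IL-33 tumors. In all, 5 IL-33 tumors were above the second-highest vehicle tumor (1.38 CPM), and none was above vehicle replicate 2. Its group means were 3.36 ± 7.60 CPM (SD, n = 8) and 5.11 ± 5.37 CPM (SD, n = 8). Cd79b, the Ig-β chain, ran from 0.543 over 2.10 to 13.1 CPM in vehicle tumors and from 1.78 over 6.02 to 15.9 CPM in IL-33 tumors. It was the member with the broadest presence, with over 3 counts in all 16 tumors, and vehicle replicate 7 had 6.97 CPM of it although each of the other 8 genes was at most 0.915 CPM there. The means of Cd79b were 3.69 ± 4.31 CPM and 7.00 ± 5.30 CPM (SD, n = 8 each), and the groups overlapped. Blk, a Src-family kinase that acts downstream of the receptor, ran from 0 over 0.119 to 2.51 CPM in vehicle tumors and from 0 over 0.589 to 1.46 CPM in IL-33 tumors.

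The surface receptors were lower, with the same few tumors on top. Ms4a1, which encodes CD20, ran from 0 over 0.211 to 10.2 CPM in vehicle tumors and from 0.0541 over 0.657 to 5.96 CPM in IL-33 tumors, with means of 1.47 ± 3.55 and 1.83 ± 2.28 CPM (SD, n = 8 each). Of its 192 counts in vehicle tumors, 167 were in replicate 2. Tnfrsf13c, the BAFF receptor that B cells need for survival, ran from 0.0412 over 0.0662 to 1.29 CPM in vehicle tumors and from 0 over 0.475 to 2.34 CPM in IL-33 tumors. The IL-33 mean of 0.725 ± 0.829 CPM (SD, n = 8) stood against 0.238 ± 0.427 CPM (SD, n = 8), and 2 IL-33 tumors, replicates 4 and 8, were above vehicle replicate 2.

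Cr2 and Fcer2a, which encode CD21 and CD23 and are typical of resting follicular B cells, were the least abundant and the most concentrated in vehicle replicate 2. Cr2 was listed at 0 in 4 vehicle and 3 IL-33 tumors and was 3.80 CPM at most in vehicle and 1.52 CPM at most in IL-33 tumors. Vehicle replicate 2 held 62 of the 67 Cr2 counts and 43 of the 45 Fcer2a counts of its group. Its level of Fcer2a was 2.64 CPM, no other vehicle tumor exceeded 0.0707 CPM, and IL-33 tumors ran from 0 over 0.137 to 0.798 CPM with the highest level in replicate 7. Follicular dendritic cells also express Cr2, and no count separates them from B cells here.

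Pax5, the transcription factor that maintains B cell identity, ran from 0.308 over 0.474 to 5.95 CPM in vehicle tumors and from 0.162 over 0.763 to 3.74 CPM in IL-33 tumors. It had a count in all 16 tumors, with 5 to 16 counts in the 7 low vehicle tumors. Its means of 1.20 ± 1.93 and 1.29 ± 1.29 CPM (SD, n = 8 each) were nearly equal. Fcrla, an Fc receptor-like protein that stays inside B cells, ran from 0.0494 over 0.175 to 2.57 CPM in vehicle tumors and from 0 over 0.591 to 1.52 CPM in IL-33 tumors.

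Per kilobase of annotated exon and over all 16 tumors, Cd79b (3.74 ± 3.47 CPM per kb, SD, n = 16) and Cd79a (2.90 ± 4.41) stood above the other genes. Cd79b was above Cd79a in 13 of 16 tumors, with a mean difference of 0.834 ± 2.23 CPM per kb (SD, n = 16) that lay within its own spread. Fcrla (0.307), Ms4a1 (0.267), Tnfrsf13c (0.235), Blk (0.182) and Pax5 (0.140) followed in mean CPM per kb, and Fcer2a (0.0966) and Cr2 (0.0586) were lowest. For each pair of neighbors in this order the SD of the difference exceeded its mean, although Cd79a was above Fcrla in 14 of 16 tumors. Whether neighbors differ was not tested.

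The main comparison asked whether IL-33 treatment changed the level of these genes. In edgeR's quasi-likelihood test of all 16817 genes with at least 10 counts, 0 of the 9 genes were higher or lower at an unadjusted p under 0.05. The share over all genes tested was 9.99% higher and 1.17% lower, and 0% passed an adjusted p of 0.05. The fitted log2 fold change (IL-33 against vehicle) was positive for 7 of the 9, with a median of 0.22 beside 0.06 over all genes. It was largest for Tnfrsf13c at 1.49 (SE 0.98, adjusted p = 0.615 in edgeR) and Cd79b at 0.83 (SE 0.62, adjusted p = 0.665 in edgeR). Cd79a and Blk both stood at 0.52 with SEs of 1.12 and 1.14, and Ms4a1 (0.22), Fcrla (0.11) and Pax5 (0.02) were near 0. Cr2 (-0.32, SE 1.38) and Fcer2a (-0.53, SE 1.31) had negative values, and both turned positive without vehicle replicate 2. The SEs of about 1 on the log2 scale show that a 2-fold difference could not be seen for most of these genes. The exact permutation test of log2(CPM + 0.5), two-sided over 12870 assignments of tumors, gave its smallest p for Cd79b at 0.103 and its next for Tnfrsf13c at 0.141.

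**Figure D2:**
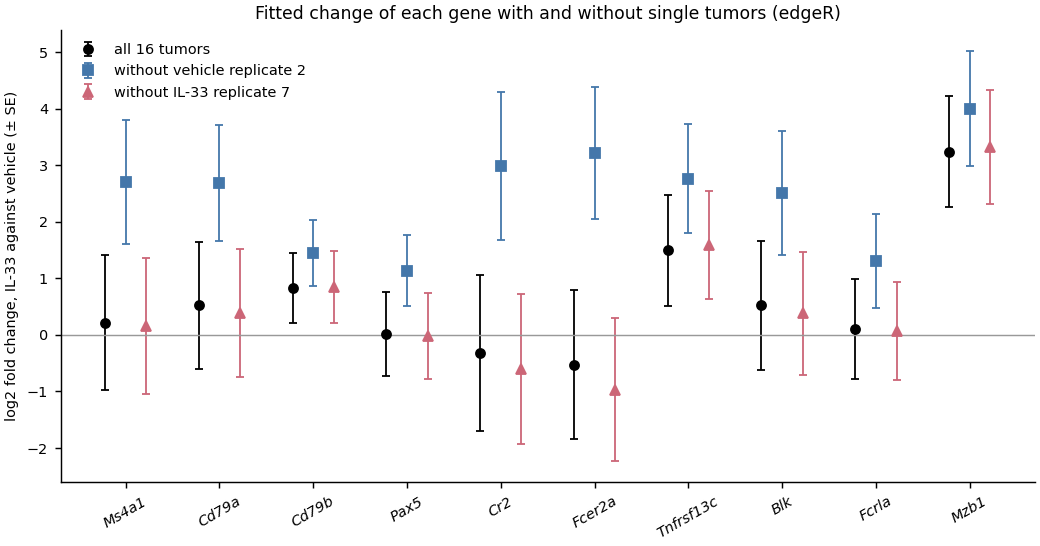
Fitted log2 fold change of the IL-33 treatment group against the vehicle group (y axis, edgeR, bars are SE) for the 9 genes and Mzb1, over all 16 tumors (black circles), without vehicle replicate 2 (blue squares) and without IL-33 replicate 7 (red triangles). The 9 genes lie between -0.53 and 1.49 over all tumors and between 1.13 and 3.21 without vehicle replicate 2, and between -0.97 and 1.58 without IL-33 replicate 7.

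Leaving out 1 tumor decided this comparison. That tumor, vehicle replicate 2, was singled out because it had the highest vehicle level of each of the 9 genes. Its omission therefore favors higher values in IL-33 tumors, and the counts and p-values without it are not independent support for a difference. Without vehicle replicate 2, 7 of the 9 genes were higher at an unadjusted p under 0.05, beside 9.17% of all genes, and 0 passed the adjusted threshold in edgeR. On the log2 scale the fitted difference was then 2.76 (SE 0.97) for Tnfrsf13c, 2.69 (SE 1.02) for Cd79a, 2.70 (SE 1.10) for Ms4a1 and 1.44 (SE 0.58) for Cd79b, each with an adjusted p of 0.469 in edgeR. Pax5 (1.13, adjusted p = 0.535 in edgeR) and Fcrla (1.31, adjusted p = 0.590 in edgeR) were not among the 7. In the remaining 7 vehicle tumors Cr2, Fcer2a and Blk never exceeded 3 counts, a level of 0.171 CPM on average, so their change is only a limit: the IL-33 mean was at least 2.54-fold higher for Cr2, at least 1.47-fold higher for Fcer2a and at least 3.47-fold higher for Blk. With 1 IL-33 tumor left out, the lowest limit for Cr2 was 1.63-fold and that for Blk 2.75-fold, both without replicate 4. For Fcer2a it was 1.01-fold without IL-33 replicate 7, so its limit rested on that tumor. The median over the 9 genes was 2.69 as fitted and 1.44 with these 3 genes at their limit. In the exact permutation test without that tumor (two-sided, 6435 assignments), Fcer2a (p = 0.025), Cd79b (p = 0.0287), Tnfrsf13c (p = 0.0385), Blk (p = 0.0401) and Cd79a (p = 0.0435) were under 0.05, and Ms4a1 (p = 0.0747), Cr2 (p = 0.132), Fcrla (p = 0.135) and Pax5 (p = 0.205) were not.

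IL-33 replicate 7 did not decide it. Without that tumor 0 of the 9 genes were higher at an unadjusted p under 0.05, beside 1.83% of all genes, and the log2 fold change of Tnfrsf13c was 1.58 (SE 0.95) and that of Cd79b 0.85 (SE 0.64). Without both tumors, a choice made after the data were seen, the same 7 genes as without vehicle replicate 2 alone were higher at an unadjusted p under 0.05, beside 2.43% of all genes, with a median of 2.56. DESeq2, which by default replaces outlying counts before fitting, had 1 of the 9 genes higher at an unadjusted p under 0.05 on all 16 tumors, beside 2.52% of all genes. This was Fcer2a, with a log2 fold change of 3.32 (SE 1.31, adjusted p = 1.00 in DESeq2), the opposite direction to its value in edgeR.

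The 9 genes followed each other across tumors. Over the 36 pairs, Pearson's r of log2(CPM + 0.5) across the 16 tumors ran from 0.632 (Cd79b with Fcer2a) to 0.945 (Pax5 with Cr2) with a median of 0.872, and Spearman's rho ran from 0.464 to 0.941. The permutation p of r was at most 0.0109 over the 36 pairs, and that of rho was under 0.05 for 35 of them (highest p 0.0727). Without vehicle replicate 2 the median r was 0.831 (0.619 to 0.928), and without the 2 tumors farthest from the median of the first gene of each pair it was 0.760 (0.432 to 0.963). Within the 8 IL-33 tumors the median r was 0.900 and the median rho 0.903. Within the 8 vehicle tumors the median r was 0.923, but the median rho was only 0.421 (-0.0714 to 0.970). A value for the vehicle tumors without replicate 2 was not computed. The tumors share their library with every gene counted in it, so these values describe how the genes vary together.

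By correlation with the mean of the 9 genes over the 16 tumors, 16657 genes outside the set and the immunoglobulin genes were ranked. Among the genes with the highest values were Cxcr5, the receptor that guides B cells into follicles, with r = 0.964, Fcmr (0.962), H2-Ob (0.958) and Cacna1i (0.938). Without IL-33 replicate 7 they were Cacna1i (0.974), Cxcr5 (0.962), Ffar1 (0.960) and Fcmr (0.960). Jchain, which links secreted antibody units, was at rank 20 (r = 0.868) and Mzb1 at rank 39 (r = 0.819) over all tumors, and they were at ranks 37 and 78 without IL-33 replicate 7. With vehicle replicate 2 left out, Mzb1 was at rank 12 (r = 0.926), and Bhlha15 (0.962) and Derl3 (0.950), both genes of secretory cells, were at ranks 2 and 5.

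Mzb1, a chaperone of the endoplasmic reticulum for antibody assembly that plasma cells, B-1 cells and plasmacytoid dendritic cells express, ran from 0.424 over 0.747 to 8.58 CPM in vehicle tumors and from 0.108 over 13.9 to 63.2 CPM in IL-33 tumors, with means of 2.16 ± 2.81 and 21.4 ± 24.9 CPM (SD, n = 8 each). That vehicle mean was exceeded by 6 IL-33 tumors, of which replicate 1 did so barely at 2.18 CPM, and by 3 vehicle tumors. The fitted log2 fold change was 3.24 (SE 0.98, adjusted p = 0.418 in edgeR), and the exact permutation p was 0.0462 over all tumors and 0.0695 without IL-33 replicate 7. Without vehicle replicate 2 the log2 fold change of Mzb1 was 4.00 (SE 1.02), beside 1.13 to 3.21 for the 9 genes, and the difference between Mzb1 and the 9 genes was not tested.

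The relation of each gene to Mzb1 was fitted in edgeR across all genes as a slope, the change in log2 level for each doubling of (CPM + 0.5) of Mzb1. It was positive for all 9 genes and passed an adjusted p of 0.05 for 3, beside 1.81% of all genes with a positive slope at that threshold. These were Tnfrsf13c at 0.78 (SE 0.14, adjusted p = 0.0085 in edgeR), Cd79b at 0.47 (SE 0.093, adjusted p = 0.017) and Cd79a at 0.92 (SE 0.21, adjusted p = 0.0336). Blk (0.90, adjusted p = 0.0551), Ms4a1 (0.86, adjusted p = 0.0664), Cr2 (1.19, adjusted p = 0.0762), Pax5 (0.46, adjusted p = 0.0763) and Fcrla (0.60, adjusted p = 0.0765) came close to it, while Fcer2a (0.65, adjusted p = 0.241) did not. At an unadjusted p under 0.05, 8 of the 9 slopes were positive beside 16.9% of all genes. Without IL-33 replicate 7, 6 of the 9 genes passed the adjusted threshold, adding Blk, Ms4a1 and Fcrla, beside 3.92% of all genes. Without vehicle replicate 2 there were also 6, with Cr2 in place of Fcrla, beside 1.57% of all genes. The count was 8 without IL-33 replicate 5, all but Fcer2a, beside 838 of 16773 genes. It was 5 without IL-33 replicate 8, beside 736 of 16765 genes, and 2 when any 1 of 6 other tumors was left out. Over all genes, 131 to 838 passed with a positive slope when 1 tumor was left out. With the replicate number as a block, 0 of the 9 genes passed, beside 17 of 16816 genes. Among other B cell genes, 8 of 21 receptor signaling genes and coreceptors and 6 of 12 transcription factors passed the same threshold with a positive slope over all 16 tumors. In other lists fewer passed, 3 of 15 other surface and antigen presentation genes, 1 of 8 BAFF and APRIL genes and 1 of 10 follicle and homing genes. For germinal center genes it was 0 of 9, for B-1 and marginal zone genes 0 of 7 and for tested precursor genes 0 of 2. Outside B cell genes, 3 of 8 markers of plasmacytoid dendritic cells passed, as did Ptprc, which all leukocytes express (slope 0.34, adjusted p = 0.0398 in edgeR). Of 9 T cell markers 0 passed, but all 9 had a positive slope at an unadjusted p under 0.05, with a median slope of 0.32, and Lck (adjusted p = 0.0759 in edgeR) and Cd4 (adjusted p = 0.0786 in edgeR) were as near to the threshold as Cr2, Pax5 and Fcrla. Without IL-33 replicate 7, Lck and Cd4 passed it. Whether the slopes of B cell genes and T cell markers differ was not tested.

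**Figure D3:**
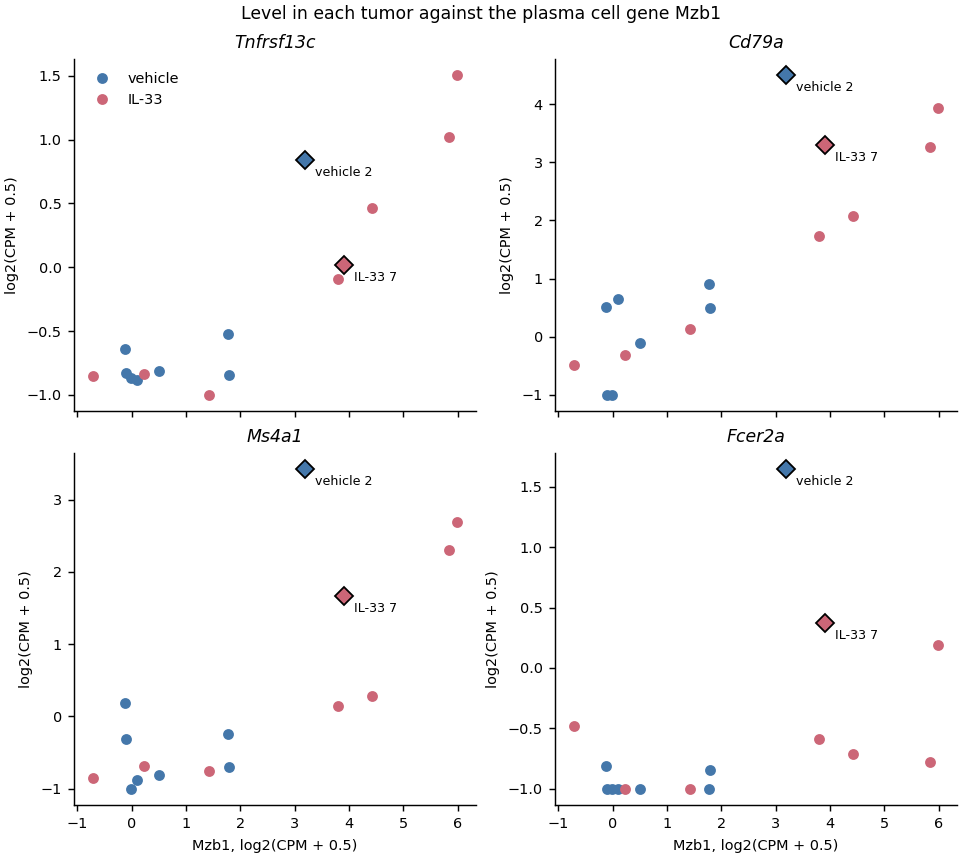
Level of 4 of the genes (y axis, log2(CPM + 0.5)) against that of Mzb1 (x axis, same scale) in vehicle tumors (blue) and IL-33 tumors (red), with vehicle replicate 2 and IL-33 replicate 7 as labelled diamonds. Tnfrsf13c rises with Mzb1 (r = 0.901), Fcer2a less so (r = 0.451), and vehicle replicate 2 lies above the other tumors with a like level of Mzb1.

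As correlations of log2(CPM + 0.5) over the 16 tumors, r with Mzb1 was highest for Tnfrsf13c (r = 0.901, permutation p = 2e-05, rho = 0.747, permutation p = 0.00127) and Cd79a (r = 0.868, permutation p = 7e-05, rho = 0.820, permutation p = 0.0002). Cd79b (r = 0.827, rho = 0.771), Blk (r = 0.813, rho = 0.770), Ms4a1 (r = 0.773, rho = 0.709), Fcrla (r = 0.763, rho = 0.697), Pax5 (r = 0.700, rho = 0.591) and Cr2 (r = 0.641, rho = 0.838) followed, with permutation p-values between 0.0001 and 0.0183. Fcer2a had r = 0.451 (permutation p = 0.0683) and rho = 0.510 (permutation p = 0.0455). There were 9 such relations, 1 for each gene. Without the 2 tumors farthest from the Mzb1 median, IL-33 replicates 4 and 8, r lay between 0.499 and 0.816, and 8 of 9 genes kept a permutation p of r under 0.05. Without IL-33 replicate 7, r lay between 0.407 and 0.907.

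The relation was also computed within groups. In the 8 IL-33 tumors r was between 0.416 (Fcer2a) and 0.979 (Cd79b), and 8 of the 9 genes had an exact permutation p under 0.05. In the 8 vehicle tumors 5 genes did, and without vehicle replicate 2 the median r over the 9 genes there was 0.25 (-0.28 to 0.57). Levels of Mzb1 left a gap between 2.97 and 8.58 CPM. The 10 tumors below it (7 vehicle and 3 IL-33) had 1.67 to 9.20 CPM of the 9 genes in sum, and the 6 above it (1 vehicle and 5 IL-33) had 11.4 to 64.3 CPM. Within the 10 low tumors the median r with Mzb1 was only 0.25 (-0.41 to 0.59). Within the 6 high tumors it was 0.084 (-0.50 to 0.69), with 4 of the 9 genes below 0. Whether the relation is graded or a contrast between low and high tumors was not tested. The difference between groups in the slope was tested as an interaction, and 0 of the 9 genes passed an adjusted p of 0.05 in edgeR. At an unadjusted p under 0.05 there was 1 of the 9, Fcer2a (difference in slope -1.76, SE 0.62, adjusted p = 1 in edgeR), beside 74 of 16816 genes in that direction. Without vehicle replicate 2 there were 0, beside 84 of 16769 genes.

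Vehicle replicate 2 held 0.388 CPM of Mzb1 for each CPM of Cd79a. Among tumors low in both genes, vehicle replicates 4 (0.462) and 8 (0.538) were near this ratio, with IL-33 replicate 6 between them. Other low tumors had higher ratios, with 2.11, 2.17 and 3.25 in vehicle replicates 3, 5 and 7. IL-33 replicates 1 and 2, also low, had 3.69 and 2.20. Tumors with many counts of both had 4.27 in IL-33 replicate 4, 6.23 in replicate 8, 5.63 in replicate 5, 4.73 in replicate 3 and 1.54 in replicate 7. At a given Mzb1 level, a comparison added after the data were seen, all 9 genes had a negative fitted difference between IL-33 and vehicle tumors. An unadjusted p under 0.05 was reached by 5 of the 9, Cr2, Fcrla, Pax5, Ms4a1 and Blk, beside 1.19% of all genes in that direction, and 0 passed the adjusted threshold (adjusted p = 0.995 in edgeR for each). Without vehicle replicate 2 none of the 9 did so, beside 192 of 16769 genes in that direction. Without IL-33 replicate 7 there were 6, beside 485 of 15802 genes, with Cr2 at an adjusted p of 0.0802.

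Genes that go with B cells in other roles were counted from 9 lists, which hold 97 genes besides the 9. Of the 92 tested, 9 were higher and 0 lower at an unadjusted p under 0.05, beside 9.99% of all genes higher, and 0 passed the adjusted threshold. The background moved more than the count did: without IL-33 replicate 7 there were 8 higher and 1 lower of 91, beside 1.83% of all genes higher, and DESeq2 had 9 higher and 1 lower of 92, beside 2.52%. The median log2 fold change was 0.37. B cell receptor signaling genes and coreceptors gave 0 of 21. Syk (0.55, adjusted p = 0.607 in edgeR) and Blnk (0.29, adjusted p = 0.624 in edgeR), which relay the receptor signal, had the smallest p in that list. Of 12 B cell transcription factors, 2 were higher: Pou2af1, a coactivator needed for germinal centers, by 2.07 (SE 0.73), and Irf4, which drives plasma cell formation, by 1.75 (SE 0.61), both with an adjusted p of 0.418 in edgeR. Both were highest in IL-33 replicate 4 and were also called without IL-33 replicate 7. Of 12 plasma cell genes 4 were higher, Mzb1, Derl3 (2.87, SE 0.95), Irf4 and Jchain (2.65, SE 1.05), and Jchain was 15.5 ± 26.9 CPM in vehicle and 105 ± 110 CPM in IL-33 tumors (SD, n = 8 each).

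In the remaining lists few genes passed. Among 15 other surface and antigen presentation genes Cd24a was higher (1.76, SE 0.64), with 182 CPM in IL-33 replicate 7, and it did not pass without that tumor. Ccl21a, a chemokine of lymphoid stroma and lymphatic vessels, was the 1 of 10 follicle and homing genes tested that was higher (3.78, SE 1.72). It had 182 CPM in IL-33 replicate 7 and at most 4.53 CPM elsewhere, and without that tumor its log2 fold change was -3.52 (SE 1.02). Among 9 germinal center genes Icosl was higher (1.06, SE 0.48), and it did not pass without IL-33 replicate 7. The BAFF and APRIL axis gave 0 of 8, with Tnfrsf13b at 0.61 (SE 0.41) and Tnfrsf17 at 1.36 (SE 0.93), the receptors TACI and BCMA, nearest to the threshold. Without IL-33 replicate 7 Tnfrsf17 was 0.58. B-1 and marginal zone genes gave 0 of 7, with Dtx1 (2.37, SE 1.20) and Cd1d1 (1.12, SE 0.57) nearest. Both were highest in IL-33 replicate 7 (22.6 and 26.7 CPM, against at most 2.64 and 5.61 CPM elsewhere), and without that tumor they were 0.29 and 0.26. Of 6 B cell precursor genes 2 could be tested, and Dntt was higher (2.09, SE 0.96) at no more than 0.656 CPM, and Rag1, Rag2, Vpreb2 and Igll1 were listed at 0 in all 16 tumors.

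Markers of other leukocytes were high in some of the same tumors and in others. The 9 T cell markers summed to 10.4 to 96.4 CPM in vehicle tumors and 5.19 to 85.0 CPM in IL-33 tumors, and none of them was at 0 throughout a group. Vehicle replicate 7 had the highest T cell sum and 703 CPM of the 4 leukocyte and macrophage markers, but 9.20 CPM of the 9 genes, of which Cd79b made up 6.97. IL-33 replicates 4, 8 and 3 came next in T cell markers with 85.0, 68.2 and 58.6 CPM, and had 709, 598 and 538 CPM of the leukocyte and macrophage markers. Vehicle replicate 2, highest in the 9 genes, had 30.2 CPM of T cell markers. Ptprc was 86.9 ± 67.9 CPM in vehicle and 126 ± 101 CPM in IL-33 tumors (SD, n = 8 each) and correlated with the mean of the 9 genes at r = 0.573, as a description over 16 tumors. Siglech, a defining gene of plasmacytoid dendritic cells, which also express Mzb1, was 0 to 2.86 CPM in vehicle and 0.162 to 5.44 CPM in IL-33 tumors. Cxcl13, the chemokine that attracts B cells to follicles, was highest in vehicle replicate 2 (51.3 CPM) and next in IL-33 replicate 7 (48.9 CPM), and at least 4.57 CPM in every tumor. The part of these cells in the levels of the 9 genes was not tested.

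**Figure D4:**
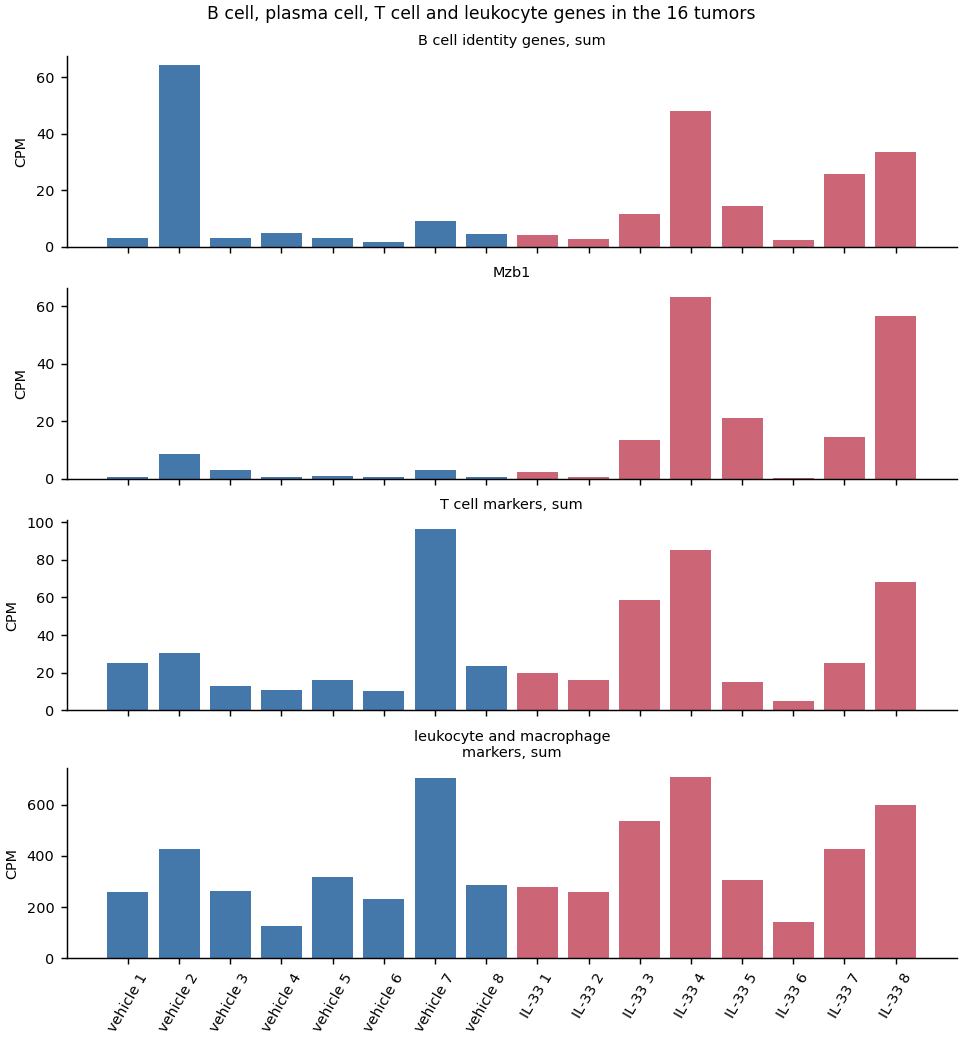
Summed level of the 9 B cell identity genes, level of Mzb1, and summed levels of 9 T cell markers and 4 leukocyte and macrophage markers (y axes, CPM) in each of the 16 tumors (x axis; blue vehicle, red IL-33). Vehicle replicate 2 is highest in B cell genes at 64.3 CPM with 8.58 CPM of Mzb1, IL-33 replicates 4 and 8 are high in both, and vehicle replicate 7 is highest in T cell markers at 96.4 CPM with 9.20 CPM of B cell genes.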

How the data were processed

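Poly(A) RNA of 16 abdominal tumors was sequenced. Titles put 8 of them into each group. Raw counts of reads on each of 22298 genes, without normalization, were deposited by the authors for every tumor, and the submitters' processing notes name HISAT2, featureCounts and mm10 with no versions. The use of strand and the treatment of reads shared by genes are not given in the sources used here. GENCODE M21 named 22255 of the genes, and 0 columns were left unused.

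The 9 genes and all lists were chosen with earlier results of these data known, so no count over a list is independent evidence. A gene entered the tests if its counts added up to 10 or more over the 16 tumors. Groups, and slopes on centered log2(CPM + 0.5) of Mzb1, were tested with edgeR 4.0.16 (R 4.3.3), TMM normalization, glmQLFit and glmQLFTest, and Benjamini-Hochberg adjustment over all genes tested. SEs were taken as the size of the log2 fold change over the root of F. For single genes, log2(CPM + 0.5) was also compared by permuting the tumors exactly and two-sided over 12870 assignments (smallest p 0.000155). Correlations had permutation tests of 100000 resamples, exact within a group of 8. The genes named are the 9, Mzb1, Ptprc, in each other B-lineage or plasma cell list those with an unadjusted p under 0.05 or otherwise the 2 with the smallest p, and the 5 genes most correlated with the mean of the 9, over all tumors and without IL-33 replicate 7. One gene that this rule names is not reported here. Tumor, reproductive tract and further leukocyte genes, and ranks without vehicle replicate 2, were added after values were seen.

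The alternatives were the replicate number as a block, DESeq2 1.42.0, voom from limma 3.58.1 weighted by sample quality, robust quasi-likelihood, upper-quartile scaling, the filterByExpr filter or none, a pseudocount of 2, the group as a covariate, and each of the 16 tumors left out. DESeq2 with 1 of 2 tumors left out, and both tumors left out, were added after the data had been seen. Same-numbered tumors deviated together (r over 0.1) in 3 of 8 pairs, so the numbers were not taken to pair them. The group and slope models were first run on simulated data with known changes at 1 fixed dispersion. The changed genes had higher mean counts than Cr2, Fcer2a, Tnfrsf13c, Blk and Fcrla, so the simulation does not cover these. Its dispersion was the same for every gene and was not estimated from these tumors. The spread of any of the 9 genes between tumors was therefore not covered either. The other models were not tested in this way. The libraries were compared in pairs, and the smallest chi-square per degree of freedom was 8.79, so that none was a copy of another. A limit against a group with at most 3 counts in each tumor was set at 3 counts per library and covers counting error only.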

Additional observations from a re-analysis of the deposited data

Results flagged for a closer look

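In the vehicle group, 8 of the 9 genes had 1 tumor far from the other 7 on the log2(CPM + 0.5) scale, and it was vehicle replicate 2 each time. The gap from this tumor to the next, as a share of the group's range, was 0.928 for Fcer2a, 0.856 for Blk, 0.836 for Cr2, 0.788 for Tnfrsf13c, 0.775 for Pax5, 0.732 for Ms4a1, 0.652 for Cd79a and 0.644 for Fcrla, each past the 95% limit of Dixon's test for 8 samples. Neither Cd79b nor Mzb1 had such a tumor among vehicle tumors, and no gene had one among IL-33 tumors. Chance alone passes about 1 in 20 such sets of 8 values. Here 20 sets were looked at, and the 8 that passed share a tumor and are not independent.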

How the results depend on the processing

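The count of the 9 genes higher at an unadjusted p under 0.05 (0 over all tumors in edgeR) was 1 with DESeq2, limma voom or the replicate block, 1 with DESeq2 without IL-33 replicate 7, and 7 with DESeq2 without vehicle replicate 2 or in edgeR without both tumors, and ranged from 0 to 7 with single tumors left out. Of all 16817 genes, 424 were higher with DESeq2, 522 with limma voom and 246 with the replicate block. DESeq2 had 286 of 15803 higher without IL-33 replicate 7 and 462 of 16770 without vehicle replicate 2. In edgeR 382 of 15720 were higher without both tumors, and 289 to 1902 genes with single tumors left out. The median log2 fold change of the 9 genes (0.22) was 1.72 with the replicate block, 2.67 with DESeq2 without vehicle replicate 2 and 2.56 without both tumors, and ranged from -0.27 to 2.69 with 1 tumor left out. Positive slopes on Mzb1 at an adjusted p under 0.05 (3 genes) numbered 8 with the group as a covariate, 8 with DESeq2, 0 with the replicate block, and 2 to 8 with 1 tumor left out. Of all 16816 genes, 304 had such a slope in the main fit and 201 with the group as a covariate. DESeq2 had 1574 and the replicate block 17, and with 1 tumor left out there were 131 to 838. At a given Mzb1 level, 5 of the 9 genes were lower at an unadjusted p under 0.05, but 0 once vehicle replicate 2 was left out and 6 once IL-33 replicate 7 was. Over all genes, 200 of 16816, 192 of 16769 and 485 of 15802 were lower in these fits. The difference in slope had 1 of the 9 genes at that threshold, beside 74 of 16816 genes with a negative difference. Without vehicle replicate 2 it had 0, beside 84 of 16769. The other 9 lists gave 9 genes higher at an unadjusted p under 0.05, beside 9.99% of all genes. Without vehicle replicate 2, a tumor singled out for its high levels of the 9 genes, they gave 14, beside 9.17%.

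Directions of single genes were not stable. With 1 tumor, or both of these tumors, left out, the log2 fold change ranged from -0.34 to 2.72 for Ms4a1, from -0.42 to 1.13 for Pax5, from -0.97 to 2.99 for Cr2, from -0.97 to 3.21 for Fcer2a and from -0.27 to 1.31 for Fcrla. Cr2 turned to 0.27 with limma voom, 1.72 with the replicate block and 3.13 with DESeq2 without vehicle replicate 2. Fcer2a turned to 3.32 with DESeq2, 0.86 with limma voom, 2.31 with the replicate block, 3.23 with DESeq2 without IL-33 replicate 7 and 3.59 with DESeq2 without vehicle replicate 2. Pax5 turned to -0.039 with DESeq2 without IL-33 replicate 7. On the log2 CPM scale the difference of Pax5 ranged from -0.032 to 0.53 with 1 tumor left out, and that of Fcer2a was -0.0025 with a pseudocount of 2. Without both tumors Cr2 was 2.75 and Fcer2a 2.86. Why the alternatives differ, that is the cause, was not tested. The fitted slopes on Mzb1 were positive for all 9 genes in every alternative run. The replicate numbers were only a hint: 2 of 8 vehicle and 2 of 8 IL-33 tumors correlated best with their own number. At counts this low, SEs near 1 on the log2 scale limit what can be seen for each gene.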
